A study of Zea mays with 303 samples.

Results

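Cells of 2 library pools, numbered 6 and 11, were compared with cells of 2 other pools, numbered 28 and 29, within 1 set of fixed single cells from maize anthers. The cells were taken by their pool index and kept when at least 500 features (annotated genes and other loci) were detected in them. This left 118 cells in pools 6 and 11, with 48 of 55 cells in pool 6 and 70 of 78 in pool 11. It left 139 cells in pools 28 and 29, with 60 of 79 cells in pool 28 and 79 of 91 in pool 29, so that 257 of the 303 cells of the series were used. All cells came from early meiotic anthers of greenhouse-grown plants of the inbred line W23 carrying bz2. The tissue was fixed with Farmer's solution, in which ethanol and acetic acid preserve the cells, and wall-digesting enzymes then freed single cells. These were sorted on a BioSorter or a Hana instrument, and libraries followed a modified CEL-Seq2 protocol on poly(A) RNA. Each GEO sample was 1 cell, and transcripts were counted as unique molecular identifiers (UMIs).

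The labels give the same genotype, tissue and protocol to all 4 pools. The sources used here do not say which sorter, anthers, plants or day belonged to which pool, and they give no reason to set pools 6 and 11 against pools 28 and 29. That pairing was proposed with earlier results of these data known. Pool, sorter, plants, stage and library preparation therefore cannot be told apart. Each pool is 1 library of summed cells, so the differences are given without a test. Levels are counts per 1000000 UMIs of the pool (CPM), with exact 95% Poisson intervals that cover counting error only. A feature is called separated when both values of pools 6 and 11 lie above, or both below, both values of pools 28 and 29. It has a 2-fold gap when the nearest values of the pairs differ at least 2-fold after 10 CPM is added to each. Fold changes are log2 ratios of the mean of pools 6 and 11 over the mean of pools 28 and 29, also with 10 CPM added.

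An anther holds the cells that enter meiosis and, around them, wall layers that include the tapetum, the endothecium and the epidermis. The endothecium can contain chloroplasts. The plastid genome encodes core subunits of the photosystems, of the ATP synthase and of the NADH dehydrogenase-like (NDH) complex, and parts of its own RNA polymerase and ribosomes. Light-harvesting proteins, the small subunit of Rubisco and many peripheral subunits are encoded in the nucleus and imported. Aquaporins are membrane channels for water and small solutes in the plasma membrane and the vacuole. Plastid transcripts mostly lack a stable poly(A) tail, and how well these libraries captured them beside nuclear transcripts was not measured.

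The pools differed in depth. The kept cells held 190541 and 259524 UMIs in pools 6 and 11, against 111673 and 217821 UMIs in pools 28 and 29. The median cell had 3078.5 and 2966.5 UMIs in pools 6 and 11, and 1453.5 and 1842 UMIs in pools 28 and 29. Cells numbered 1 to 48 were deeper than cells numbered 49 to 96 in every pool. Of the 96 cell numbers, 82 occurred in at least 2 pools and 26 in all 4, and no 2 cells had identical counts. The meiocyte and epidermis marker lists were nearly empty. RAD51B, a recombination gene and the single matched meiocyte marker, had 1 and 2 UMIs in pools 6 and 11 and 1 and 2 UMIs in pools 28 and 29. CR4, a receptor kinase of the epidermis, had 2 and 4 UMIs in each pair, and no tapetum or vascular marker matched by name. The labelled stage could thus not be checked against meiotic markers.

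Among all pairs of pools the like ones were 6 with 11 and 28 with 29. After the pool sums had been thinned to 111673 UMIs each, 4072 features had a mean of at least 50 CPM. The median absolute log2 ratio was 0.41 between pools 6 and 11 and 0.45 between pools 28 and 29, and 0.58 in each of the 4 pairs across. Ratios over 2-fold were seen in 12.3% of features between pools 6 and 11 and in 15.9% between pools 28 and 29. In the pairs across, 23.9% to 25.4% of features differed that much. Spearman correlations across features, which share the libraries and are no replicates, were 0.70 between pools 6 and 11, 0.64 between pools 28 and 29, and 0.50 to 0.53 across. Because the pairing was proposed with earlier results of these data known, this likeness is no independent support for it.

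Of the 4111 features with a mean of at least 50 CPM at full depth, 643 (15.6%) were separated with pools 6 and 11 higher. A further 1488 (36.2%) were separated with pools 6 and 11 lower, 51.8% in either direction. With only 2 values on each side, features that do not differ between the pairs can often fall in such an order too. The call by itself is therefore weak. The median log2 fold of all 4111 features was -0.21, so levels in pools 6 and 11 were on the whole lower relative to the pool total. With trimmed-mean scaling (TMM, which aligns the bulk of features) 1157 were higher and 976 lower, and the median was 0.05. The split by direction thus depended on the scaling, and folds below are best read against the median of all features. A 2-fold gap was seen in 80 features (1.95%) with pools 6 and 11 higher and in 176 (4.28%) with them lower, 6.23% in either direction. TMM scaling raised every value of pools 6 and 11 and lowered every value of pools 28 and 29, so all 80 had to keep that gap. Of the 176, 97 kept it. With every cell weighing the same, 50 of the 80 and 126 of the 176 kept it. Within cells numbered 1 to 48 and within cells numbered 49 to 96 alike, 69 of the 80 and 163 of the 176 were separated in the same direction. The features had been picked in sums of these same cells, so this agreement is partly built in and is no replication.

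A few features took a larger part of the UMIs in pools 6 and 11. The 3 most abundant features, all without a name, held 11.8% and 12.7% of UMIs in pools 6 and 11, against 3.50% and 2.89% in pools 28 and 29. In the median cell they took 4.82% and 8.72% in pools 6 and 11, and 2.66% and 2.02% in pools 28 and 29. The highest cell reached 40.0% in pool 6 and 27.5% in pool 11, against 13.5% in pool 28 and 11.6% in pool 29. Of the 20 most abundant features, 13 were separated with pools 6 and 11 higher and 5 with them lower. With these 20 features left out of the pool totals, 1162 features were higher and 1317 lower, and the median log2 fold of all features was -0.02. Among features of at least 1000 CPM, 54.2% were higher, whereas 15.3% of those from 50 to 100 CPM were.

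**Figure D1:**
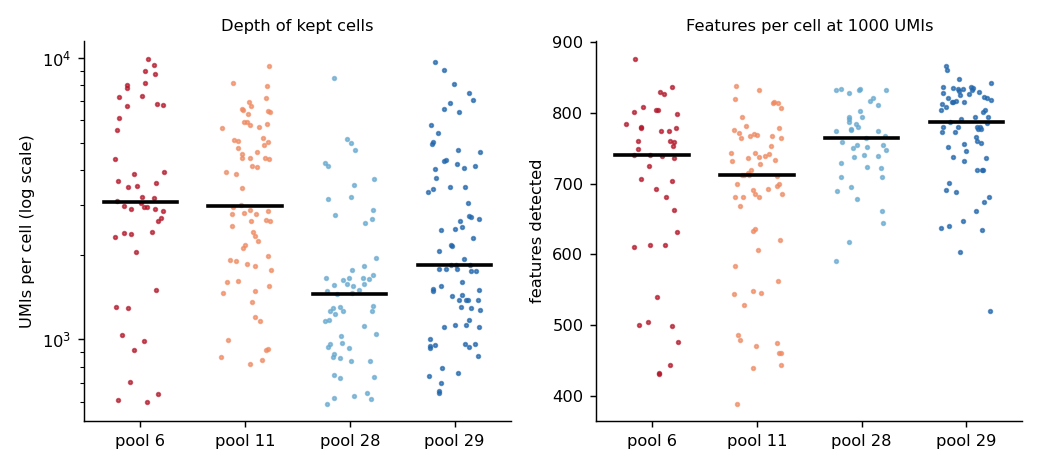
UMIs per kept cell (left, log axis) and features detected per cell after thinning to 1000 UMIs (right), by pool. Each point is 1 cell and the black bar is the median. The medians at 1000 UMIs were 741 and 712.5 features in pools 6 and 11, against 765 and 787 in pools 28 and 29, with a tail of low cells in pools 6 and 11.

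At equal depth the cells of pools 6 and 11 showed somewhat fewer features. Thinned to 1000 UMIs, the 42 and 64 cells of pools 6 and 11 that were deep enough had medians of 741 and 712.5 features. The 43 and 66 such cells of pools 28 and 29 had medians of 765 and 787 features. The lower quartile was 618.5 and 617.25 features in pools 6 and 11, and 727 and 736.5 in pools 28 and 29. When the 20 most abundant features were left out before thinning, a check added after seeing the data, the medians were 828 and 821 in pools 6 and 11 and 821 and 837.5 in pools 28 and 29. The pairs then overlapped. With all features, they also overlapped in cells numbered 1 to 48, with medians of 767 and 726 against 755 and 781. In cells numbered 49 to 96 they did not, with 733 and 708 in pools 6 and 11 against 770 and 806. Cells below 1000 UMIs, which were left out, numbered 6 and 6 in pools 6 and 11, and 17 and 13 in pools 28 and 29.

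In pool sums of 111673 UMIs each, 9439 features were detected in all 4 pools. There were 491 features seen in both pools 6 and 11 and in neither of pools 28 and 29, and 624 seen in both pools 28 and 29 and in neither of pools 6 and 11. Most were rare, with medians of 3 and 4 UMIs over the thinned sums. At least 10 UMIs were held by 22 of the 491 and by 30 of the 624.

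Plastid-encoded photosynthesis genes were higher in the sums of pools 6 and 11. Of the 12 genes of the list, all of which passed the level of 50 CPM, 11 were separated with pools 6 and 11 higher and none lower, where 15.6% of all features were higher. The median log2 fold of the list was 1.26, against -0.21 over all features, and 6 of the 12 had a 2-fold gap, against 1.95% of all features. For 10 of the 12 the counting intervals of the pairs were apart as well. Of the list's UMIs, the 3 highest cells held 44.6% and 24.8% in pools 6 and 11. In pools 28 and 29 they held 22.6% and 25.0%. The list took 0.54% and 0.58% of UMIs in the median cell of pools 6 and 11. In pools 28 and 29 it took 0.48% and 0.42%, so the median cells differed less than the sums. The names follow from the symbols in the table, and the members share 1 genome and are often transcribed together, so they are not independent of each other.

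The plastid-encoded photosystem II genes of the list showed the difference in every counted member. psbH, a small phosphoprotein of the photosystem II core, stood at 1123 (978 to 1284) and 1067 (945 to 1201) CPM in pools 6 and 11. In pools 28 and 29 it stood at 376.1 (271 to 508) and 385.6 (308 to 477) CPM, a log2 fold of 1.50. psbA, the D1 reaction centre protein, had 535 and 586 CPM in pools 6 and 11, against 197 and 184 CPM in pools 28 and 29 (log2 fold 1.51). The 2 pools of each pair were close for both genes, and the pairs did not overlap. psbB, the core antenna protein CP47, reached 729.5 and 1021 CPM in pools 6 and 11 against 358 and 280.0 CPM in pools 28 and 29 (log2 fold 1.43), and psbC, the antenna protein CP43, 5306 and 4986 CPM in pools 6 and 11 against 1952 and 2851 CPM in pools 28 and 29 (log2 fold 1.10). The photosystem I subunit psaC did not follow, with 194 and 208 CPM in pools 6 and 11 and 107.5 and 229.5 CPM in pools 28 and 29, and its log2 fold of 0.24 was -0.31 when every cell weighed the same and -0.18 without pool 28.

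All 5 listed genes of the NDH complex, which cycles electrons around photosystem I, were higher. ndhE had 189 and 304 CPM in pools 6 and 11, against 8.95 CPM from 1 UMI in pool 28 and 45.9 CPM from 10 UMIs in pool 29. Its log2 fold was 2.78, the largest of the list. The fold was 3.76 without pool 29, 2.20 without pool 28 and 1.94 with 50 CPM added in place of 10. ndhI reached 824 and 747.5 CPM in pools 6 and 11 against 143 and 293.8 CPM in pools 28 and 29 (log2 fold 1.80), and ndhG 362 and 381 CPM in pools 6 and 11 against 107.5 and 151.5 CPM in pools 28 and 29 (log2 fold 1.45). ndhF and ndhH had log2 folds of 0.86 and 0.92. atpI, a membrane subunit of the ATP synthase, and cemA, an envelope membrane protein, had log2 folds of 0.99 each, with cemA at 4624 and 5233 CPM in pools 6 and 11 against 2489 and 2465 CPM in pools 28 and 29.

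The plastid's own gene expression genes were higher too. Of the 12 genes of this list, 11 were separated with pools 6 and 11 higher and none lower, where 15.6% of all features were higher. The median log2 fold was 1.00, and 4 of the 12 had a 2-fold gap, against 1.95% of all features. Most of the list lay at 1000 CPM or more, where 54.2% of features, list members included, were higher. The median log2 fold of features at that level was 0.51. rps3 is a gene name used in the plastid and in the mitochondrial genome, and without it 10 of 11 were higher. All 4 listed genes of the plastid-encoded RNA polymerase were higher. rpoC1 stood at 1674 (1495 to 1868) and 2050 (1879 to 2232) CPM in pools 6 and 11, against 475 (356 to 621) and 381 (304 to 472) CPM in pools 28 and 29, a log2 fold of 2.10. rpoC2 had 3264 and 4751 CPM in pools 6 and 11 against 1182 and 1295 CPM in pools 28 and 29 (log2 fold 1.69), and rpoB 2419 and 3830 CPM in pools 6 and 11 against 1101 and 918 CPM in pools 28 and 29 (log2 fold 1.62). All 3 had a 2-fold gap. rpoA followed with a log2 fold of 1.11.

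Among the translation genes of that list, rps2, a protein of the small ribosomal subunit, had 504 and 636 CPM in pools 6 and 11 and 107.5 and 188 CPM in pools 28 and 29 (log2 fold 1.88). infA, an initiation factor, had 1732 and 2235 CPM in pools 6 and 11 against 770.1 and 927 CPM in pools 28 and 29 (log2 fold 1.21). clpP, a subunit of the Clp protease, had a log2 fold of 0.88, and rpl14, rpl33 and rps18 of 0.84, 0.77 and 0.87. rps16 was not separated, with 1018 and 1129 CPM in pools 6 and 11 inside the span of 860 and 1368 CPM in pools 28 and 29. Its log2 fold was -0.05, and 0.21 under TMM scaling, where it was not separated either.

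Within pools, the plastid share of both lists together was higher in the median cell and higher still in the cells richest in plastid transcripts. Together the 24 genes of both lists took 3.79% and 4.29% of UMIs in pools 6 and 11, against 1.72% and 2.15% in pools 28 and 29. In the median cell the share was 1.79% and 1.85% in pools 6 and 11, and 1.19% and 1.35% in pools 28 and 29. The upper quartile was 2.83% and 6.25% in pools 6 and 11, against 2.27% and 1.88% in pools 28 and 29. The highest cell had 11.2% and 14.3% in pools 6 and 11, and 7.16% and 7.43% in pools 28 and 29. The gene expression list alone took 1.17% and 1.27% in the median cell of pools 6 and 11. In pools 28 and 29 it took 0.76% and 0.88%. The photosynthesis list alone differed less, with 0.54% and 0.58% against 0.48% and 0.42%. With every cell weighing the same, the median log2 fold of the photosynthesis list was 0.89 and that of the gene expression list 0.80. In cells numbered 1 to 48 these medians were 1.42 and 1.21, and in cells numbered 49 to 96 they were 0.98 and 0.80. The pool sums alone cannot tell more cells rich in plastid transcripts from more such transcripts per cell. The shares per cell above describe both, but the part of each in the summed difference was not tested.

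**Figure D2:**
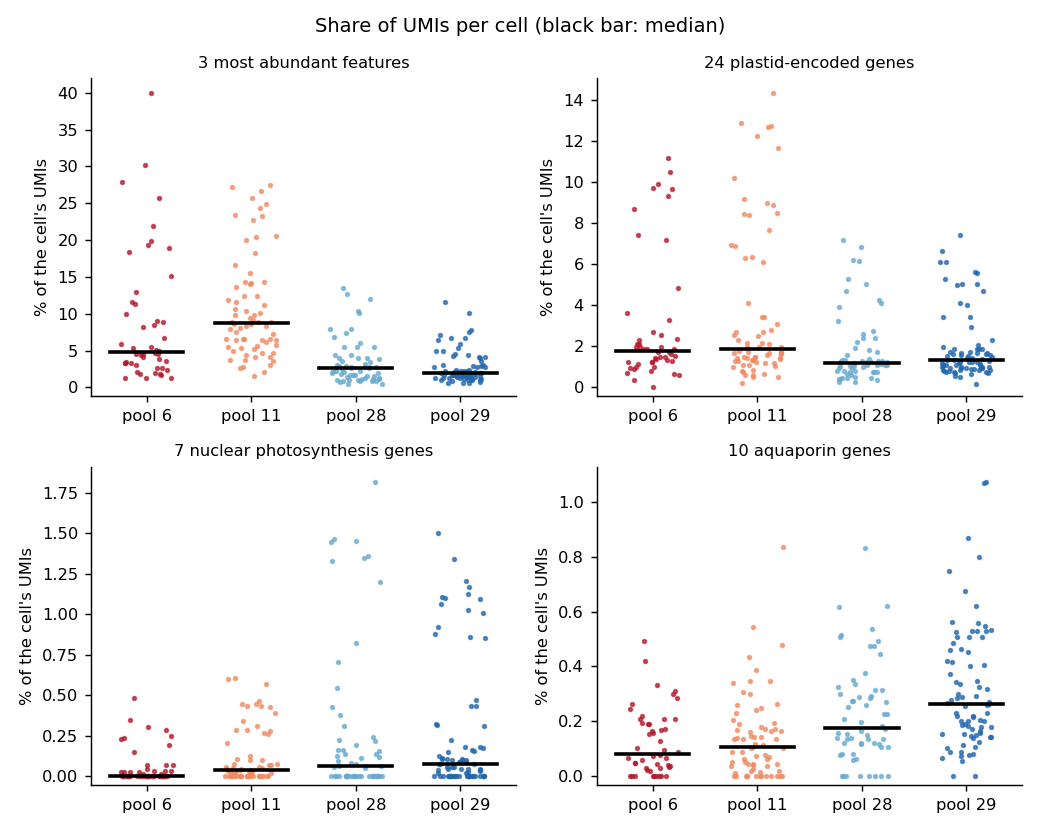
Share of each kept cell's UMIs, in percent, held by the 3 most abundant features, the 24 plastid-encoded genes, the 7 nuclear photosynthesis genes and the 10 aquaporin genes, by pool. Each point is 1 cell and the black bar is the median. The plastid-encoded share reached 11.2% and 14.3% in pools 6 and 11, against 7.16% and 7.43% in pools 28 and 29, while the nuclear photosynthesis share reached 0.480% and 0.608% in pools 6 and 11, against 1.82% and 1.50% in pools 28 and 29.

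In the pool sums, nuclear genes of photosynthesis ran the other way. Of the 7 listed genes 5 passed the level of 50 CPM, and 4 of these were separated with pools 6 and 11 lower and none higher, where 36.2% of all features were lower. The median log2 fold was -1.26, and 2 of the 5 had a 2-fold gap, against 4.28% of all features. CAB1, a chlorophyll a/b-binding protein of the light-harvesting antenna, had 478 (385 to 586) and 882 (772 to 1004) CPM in pools 6 and 11. In pools 28 and 29 it had 1397 (1186 to 1634) and 1850 (1674 to 2040) CPM, a log2 fold of -1.24. PSAH, a photosystem I subunit, had 52.5 and 61.7 CPM in pools 6 and 11, against 152 and 248 CPM in pools 28 and 29 (log2 fold -1.65). PSBQ1, of the oxygen-evolving complex of photosystem II, had 110 and 154 CPM in pools 6 and 11 against 340.3 and 468 CPM in pools 28 and 29 (log2 fold -1.54). FDX3, a ferredoxin, had 78.7 and 38.5 CPM in pools 6 and 11 and 143 and 165 CPM in pools 28 and 29 (log2 fold -1.26). The values of the pairs did not overlap for these 4 genes, and the counting intervals were apart for CAB1 and PSBQ1. Within each pool, the cell with the highest plastid-encoded share was also high in the nuclear list. That cell's nuclear share was 0.349% and 0.392% in pools 6 and 11, and 0.703% and 0.858% in pools 28 and 29. The upper quartiles of the nuclear share were 0.0486% and 0.184%, and 0.226% and 0.311%. Whether the 2 shares go together from cell to cell was not tested.

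RBCS, the small subunit of Rubisco, was not separated. It had 152 and 320 CPM in pools 6 and 11 and 313 and 643 CPM in pools 28 and 29, so that pool 11 lay just above pool 28. Its log2 fold of -0.99 was -0.39 without pool 29 and -1.59 without pool 11. RCA1, Rubisco activase, had 0 and 2 UMIs in pools 6 and 11 and 2 and 7 UMIs in pools 28 and 29, below the level used for counting. CAB1, PSAH, RCA1 and RBCS were also the endothecium markers, whose summed level was 682 and 1272 CPM in pools 6 and 11 and 1880 and 2773 CPM in pools 28 and 29. Thinned to 1000 UMIs, 21.4% and 35.9% of cells in pools 6 and 11 had a UMI of these 4 genes, against 44.2% and 51.5% in pools 28 and 29. The part of the number of such cells in the difference was not tested.

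**Figure D3:**
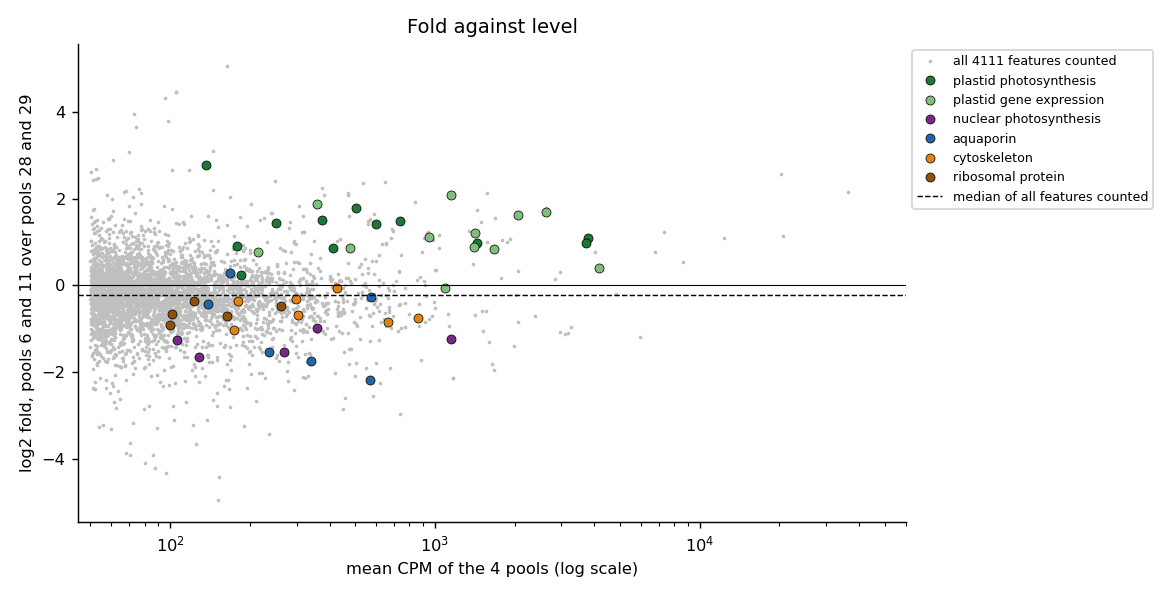
Log2 fold of pools 6 and 11 over pools 28 and 29 against the mean CPM of the 4 pools (log axis), for each of the 4111 features counted. Coloured points are the members of 6 gene lists, and the dashed line is the median of all features, -0.21. The plastid-encoded lists lie mostly above 0, the nuclear photosynthesis genes from -1.65 to -0.99, and the cytoskeleton and ribosomal protein genes near or below the dashed line.

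Several aquaporins of the vacuole and the plasma membrane were lower in pools 6 and 11. Of 10 detected members 6 passed the level of 50 CPM, and 4 of them were separated with pools 6 and 11 lower and none higher, where 36.2% of all features were lower. The median log2 fold was -0.98. Under TMM scaling 3 of the 6 were separated and lower, and likewise 3 of 6 with every cell weighing the same. TIP1-1, a vacuolar aquaporin, had 152 (102 to 219) and 243 (187 to 311) CPM in pools 6 and 11, against 887 (721 to 1079) and 987 (860 to 1128) CPM in pools 28 and 29. This was the widest gap of any named gene on the lower side, with a log2 fold of -2.19. PIP2-1, of the plasma membrane, had 121 and 181 CPM in pools 6 and 11 and 448 and 606 CPM in pools 28 and 29 (log2 fold -1.74). A UMI of TIP1-1 was seen in 14.3% and 20.3% of cells of pools 6 and 11 thinned to 1000 UMIs, against 41.9% and 45.5% of those of pools 28 and 29.

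PIP2-2 was lower by a log2 fold of -1.53, at 121 and 112 CPM in pools 6 and 11 and 197 and 514 CPM in pools 28 and 29. Pool 29 carried much of that, and the log2 fold was -0.71 without it. PIP1-3 was separated by a narrow margin, with 139 CPM in pool 11 and 143 CPM in pool 28, and was not separated under TMM scaling. NIP1-1, of the nodulin-like subfamily, had 147 and 223 CPM in pools 6 and 11 and 125 and 174 CPM in pools 28 and 29, and SIP1-2, a small basic intrinsic protein, had 556 and 478 CPM in pools 6 and 11 against 698 and 551 CPM in pools 28 and 29. Neither was separated. The other 4 members had 7 UMIs or fewer in any pool. The aquaporins together took 0.0813% and 0.105% of UMIs in the median cell of pools 6 and 11, against 0.177% and 0.264% in pools 28 and 29.

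**Figure D4:**
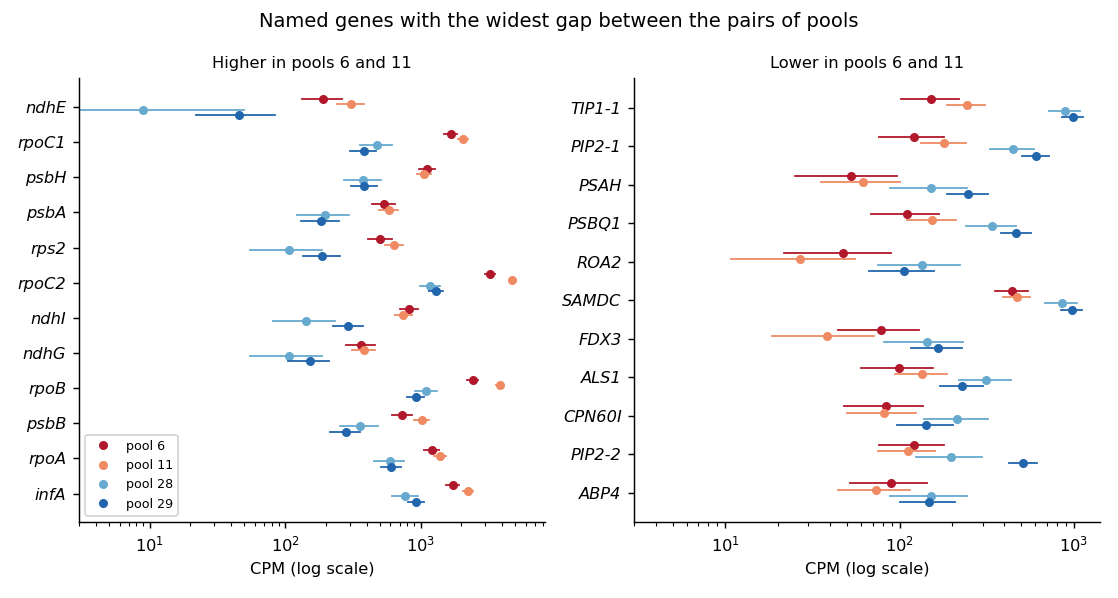
CPM per pool (log axis) of the 12 named genes with the widest gap above pools 28 and 29 (left) and of 11 of the 12 with the widest gap below them (right), with exact 95% Poisson intervals as lines. The line of ndhE in pool 28, with 1 UMI, runs past the left edge. All 12 genes on the left are plastid-encoded, and the genes on the right include 2 photosystem subunits and 3 aquaporins.

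C2, chalcone synthase, which starts flavonoid synthesis, was the counted nuclear gene of the lists with the largest fold above 0. It had 866 (739 to 1009) and 1102 (978 to 1237) CPM in pools 6 and 11, against 304 (211 to 425) and 477.5 (390.1 to 579) CPM in pools 28 and 29, a log2 fold of 1.31. Few cells held these UMIs. The 3 highest cells held 83.0% and 54.5% of them in pools 6 and 11, and 61.8% and 47.1% in pools 28 and 29. Thinned to 1000 UMIs, 21.4% and 17.2% of cells in pools 6 and 11 had a UMI of C2, and 18.6% and 15.2% in pools 28 and 29. The share of cells thus differed less than the summed level. In cells numbered 49 to 96 alone, C2 was not separated, with 580.3 and 1699 CPM in pools 6 and 11 and 311 and 694 CPM in pools 28 and 29.

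The cytosolic glyceraldehyde-3-phosphate dehydrogenase genes of glycolysis differed from each other. GAPC3 had 745 and 408 CPM in pools 6 and 11, against 385 and 169.9 CPM in pools 28 and 29 (log2 fold 1.03), with pools 11 and 28 nearly level. The log2 fold was 0.54 without pool 6, 0.57 without pool 29 and 1.71 without pool 28. GAPC3 was not separated in cells numbered 49 to 96 or in cells with at least 1000 features. GAPC2 had 493 and 393 CPM in pools 6 and 11 and 698 and 1028 CPM in pools 28 and 29 (log2 fold -0.95). The 3 highest cells held 63.4% and 51.9% of the GAPC3 UMIs in pools 6 and 11 and 51.2% and 37.8% in pools 28 and 29, but 15.2% to 24.4% of the GAPC2 UMIs across the 4 pools. PPDK2, pyruvate orthophosphate dikinase, was not separated, with 142 and 96.3 CPM in pools 6 and 11 and 134 and 427 CPM in pools 28 and 29. Its log2 fold was -1.17, and -0.16 without pool 29.

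Genes of the cytoskeleton and of ribosomes lay lower in pools 6 and 11, by less than the nuclear photosynthesis genes and further from 0 than the median of all features. Of 7 counted cytoskeleton genes 6 were separated and lower, where 36.2% of all features were, with a median log2 fold of -0.68. Under TMM scaling 4 of 7 were, with a median of -0.43, and with every cell weighing the same 3 of 7 were. The tubulin gene TUBA1 had 656 and 620 CPM in pools 6 and 11, against 860 and 1308 CPM in pools 28 and 29, and was not separated with every cell weighing the same. TUBA3 had 404 and 543 CPM in pools 6 and 11, against 994 and 716 CPM in pools 28 and 29. ADF3, an actin-depolymerizing factor, was not separated, with 404 and 428 CPM in pools 6 and 11 and 367 and 500.4 CPM in pools 28 and 29, and its log2 fold was -0.06 and, under TMM scaling, 0.20. All 5 counted ribosomal protein genes were separated and lower (median log2 fold -0.66), where 36.2% of all features were. Under TMM scaling 3 of 5 were (median -0.42), and in cells numbered 49 to 96 2 of 5 were. RPL17, of the large ribosomal subunit, had 110 and 135 CPM in pools 6 and 11, against 233 and 179 CPM in pools 28 and 29. No member of either list had a 2-fold gap or counting intervals that were apart.

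Of the mitochondrial ADP/ATP carriers, ANT1 was lower, with 577 and 482 CPM in pools 6 and 11 and 904 and 730.0 CPM in pools 28 and 29 (log2 fold -0.62). ANT2 stood almost level, with 283 and 297 CPM in pools 6 and 11 and 296 and 271 CPM in pools 28 and 29 (log2 fold 0.03), but was separated and higher under TMM scaling (0.29). SODCC.1, a copper-zinc superoxide dismutase, had 173 and 243 CPM in pools 6 and 11, against 385 and 473 CPM in pools 28 and 29 (log2 fold -1.01), while SODCC.2 was not separated (log2 fold -0.08, and 0.18 under TMM scaling). BIPE2, a chaperone of the endoplasmic reticulum, had 73.5 and 61.7 CPM in pools 6 and 11 against 134 and 110 CPM in pools 28 and 29 (log2 fold -0.77). The chromatin genes HMGIY2, a DNA-binding protein, and EZ1, a Polycomb histone methyltransferase, were not separated, with log2 folds of -0.59 and 0.43. HMGIY2 was separated and lower with every cell weighing the same, and EZ1 was separated and higher under TMM scaling. EZ1 had 5 UMIs in pool 29, and its log2 fold was -0.19 without that pool and 1.53 without pool 28.

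Of 5 genes outside the lists that were named for a wide gap on the lower side, SAMDC, S-adenosylmethionine decarboxylase of polyamine synthesis, was the most abundant. It had 441 (352 to 546) and 470.1 (390 to 561) CPM in pools 6 and 11, against 851 (688 to 1040) and 973 (847 to 1113) CPM in pools 28 and 29 (log2 fold -0.99). A UMI of it was seen in 33.3% and 32.8% of cells of pools 6 and 11 thinned to 1000 UMIs, and in 62.8% and 62.1% of those of pools 28 and 29. ALS1, acetolactate synthase of branched-chain amino acid synthesis, had 99.7 and 135 CPM in pools 6 and 11 against 313 and 229.5 CPM in pools 28 and 29 (log2 fold -1.14). CPN60I, a mitochondrial chaperonin, ROA2 and ABP4, an auxin-binding protein, were lower as well, with log2 folds of -1.03, -1.46 and -0.81. ROA2 had the widest gap of these 5 genes, with 47.2 and 27.0 CPM in pools 6 and 11 and 134 and 106 CPM in pools 28 and 29.

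The widest gaps of all belonged to features without a name. Zm00001d045392 had 80 and 61 UMIs in pools 6 and 11 and none in pools 28 and 29. Summed over each pair this was at least 34.4-fold higher in pools 6 and 11, against a floor of 3 UMIs over pools 28 and 29. Zm00001d002160 had 42 and 42 UMIs in pools 6 and 11 and none in pools 28 and 29, at least 20.5-fold higher. Both were limited to a part of the cells, with a UMI of Zm00001d045392 in 19.0% and 12.5% of thinned cells of pools 6 and 11. On the lower side, Zm00001d021995 had 1 and 1 UMI in pools 6 and 11 and 52 and 30 UMIs in pools 28 and 29, and Zm00001d028180 had 7 and 7 UMIs in pools 6 and 11 and 47 and 101 in pools 28 and 29 (log2 fold -3.43). The log2 fold of Zm00001d021995 was -4.42, and -3.34 without pool 28. Of the 80 features with a 2-fold gap above pools 28 and 29, 5 had no UMI there, and of the 176 below them none lacked UMIs in pools 6 and 11.

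Identifiers of the older GRMZM kind leaned to the higher side, with 43 of 59 counted separated and higher, 6 lower, and 15 with a 2-fold gap above. Of all features counted, 15.6% were higher, 36.2% lower and 1.95% had a 2-fold gap above. The 10 named genes with such a gap were all plastid-encoded. The precursors of phased small RNAs, known from maize anthers, were rare. The 21PHAS_NO350 locus had 4 and 14 UMIs in pools 6 and 11, held by at most 3 cells of each pool, and none in pools 28 and 29, at least 4.39-fold higher. The other 5 such loci had 4 UMIs or fewer in any pool. SGS3, a factor in making small interfering RNAs, was not separated, with 499 and 362 CPM in pools 6 and 11 and 421 and 358 CPM in pools 28 and 29, though it was higher under TMM scaling.

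**Figure D5:**
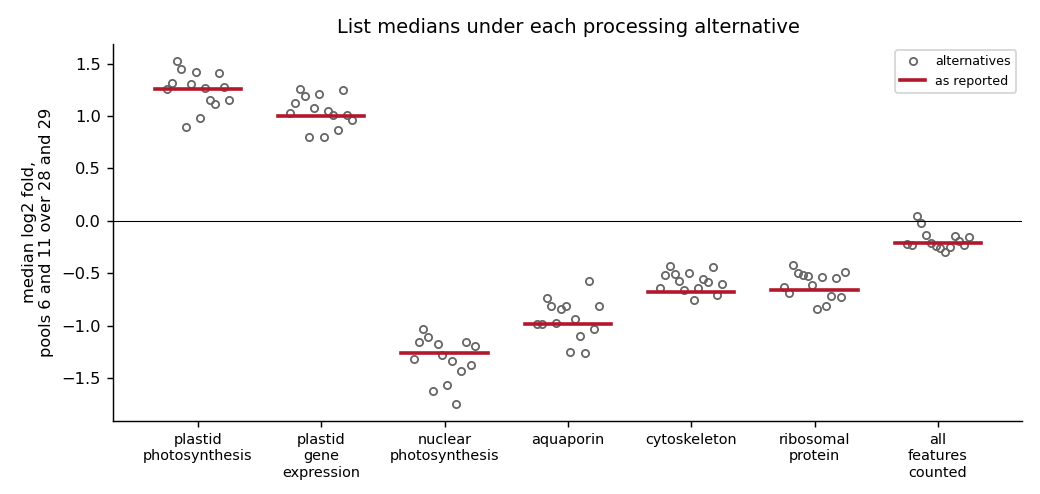
Median log2 fold of 6 gene lists and of all features counted, as reported (red bar) and under each processing alternative (open circles). The plastid-encoded lists stayed above 0, from 0.80 to 1.53, and the other 4 lists below 0, while the median of all features moved around 0, from -0.29 to 0.05.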

How the data were processed

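Single-cell libraries of fixed maize anther cells were analysed from 1 table of UMI counts that the authors deposited, whole numbers per feature and cell with no normalization. Per the submitters' processing notes, HISAT2 was the aligner and B73 RefGen_v4 the genome build. The sources used here name no UMI counter, annotation release or cell filter. All 303 count columns matched a sample description. Of 155 features with a symbol, 144 were found in the gene table used here (Zm-B73-REFERENCE-NAM-5.0, names only). None of the 16854 Zm00001d or 131 GRMZM identifiers was, so these have no name, and at most 2 per direction are printed.

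Cells with at least 500 features were kept, UMIs were summed per pool and scaled to CPM, and features with a mean of at least 50 CPM over the 4 pools were counted. Sums and cells were thinned without replacement with a fixed seed. Intervals are exact Poisson intervals. They cover counting error only, and cells vary beyond it. The calculations used Python 3.11.15, numpy 2.4.6, pandas 2.3.3 and scipy 1.17.1, and TMM factors came from edgeR 4.0.16. No doublet caller was run.

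Named are all detected members of the gene lists, the 12 symbols with the widest gap in each direction, and 2 unnamed features in each; 1 gene is not reported here. The members, pools and lists were chosen with earlier results of these data known, and lists were matched by symbol. No gene list and no pairing of pools is therefore independent evidence. Alternatives varied the cell filter, scaling, cell weighting, depth, cell numbers, pools, pseudocount and level.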

Additional observations from a re-analysis of the deposited data

Results flagged for a closer look

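Cells below 500 features entered none of the comparisons, yet they carried transcripts of the 24 plastid-encoded genes, at a higher share in pools 6 and 11, as in the kept cells. These genes made up 2.90% of UMIs in 7 such cells of pool 6 and 8.35% in 8 cells of pool 11, against 1.81% in 19 cells of pool 28 and 1.64% in 12 cells of pool 29. The median of these cells was 1.84% and 5.66% in pools 6 and 11, and 1.13% and 1.73% in pools 28 and 29. By that median pool 6 lay only just above pool 29. The highest shares in pool 11 were 18.0%, 12.0% and 10.6%, in the cells numbered 67, 75 and 68. The totals were small, with 92 and 446 UMIs of these genes in pools 6 and 11, and 145 and 67 in pools 28 and 29.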

How the results depend on the processing

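The direction of each list's median was kept under every alternative run for it, while its size and the counts over all features moved. In the order plastid photosynthesis, plastid gene expression, carbon and glycolysis, cytoskeleton and ribosomal protein, the median log2 folds were 1.53, 1.26, -0.70, -0.43 and -0.42 under TMM scaling. With totals without the 20 most abundant features they were 1.45, 1.19, -0.76, -0.50 and -0.50. With every cell weighing the same, the plastid lists had 0.89 and 0.80, nuclear photosynthesis -1.63, cytoskeleton -0.57 and ribosomal protein -0.52. The log2 fold of PRO5, a profilin, then reversed to 0.063. In cells numbered 1 to 48 the plastid lists had 1.42 and 1.21 and cytoskeleton -0.50. In cells numbered 49 to 96 they had 0.98 and 0.80, cytoskeleton -0.76 and ribosomal protein -0.84. Cytoskeleton had -0.51 in cells with at least 1000 features and -0.60 with a pseudocount of 50 CPM, and ribosomal protein -0.53 in thinned sums and -0.49 with that pseudocount.

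Features separated with pools 6 and 11 higher and lower numbered 1157 and 976 under TMM scaling, and 1162 were higher without the 20 most abundant features. They numbered 1498 and 2848 at a mean of at least 20 CPM, and 2900 and 4386 with at least 1 UMI. Gaps of 2-fold numbered 146 higher and 91 lower under TMM scaling, 147 higher without the 20 features, 51 and 65 with a pseudocount of 50 CPM, 154 and 349 at 20 CPM, and 307 and 459 with at least 1 UMI. The difference in median features per cell, -49.25 as reported, was -25 at 500 UMIs, -21.5 in cells 1 to 48, -67.5 in cells 49 to 96 and -4.75 without the 20 features, the last added after seeing the data. The causes of these shifts were not tested.

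Leaving out 1 pool at a time eases the separation, since 1 value then stands for a pair. Higher features ranged from 894 (without pool 6) to 1198 (without pool 28), lower ones from 1925 to 2112, 2-fold gaps from 103 (without pool 11) to 214 (without pool 29) higher and from 283 (without pool 28) to 395 (without pool 11) lower, and the difference in features per cell from -63.5 to -35. List medians ranged from 1.12 to 1.41 for plastid photosynthesis, 0.87 to 1.25 for plastid gene expression, -1.74 to -1.16 for nuclear photosynthesis, -1.26 to -0.57 for aquaporins, -1.20 to -0.16 for carbon and glycolysis, -0.64 to -0.44 for cytoskeleton and -0.81 to -0.53 for ribosomal protein. No paired analysis was possible because the results come from no test and the cell numbers only name barcodes. With 1 summed library per pool and features of 50 CPM resting on few UMIs in pool 28, small differences were not detectable at this depth.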
